A study of Mus musculus with 24 samples.

Results

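The complement system was followed here through 9 genes fixed by name: C1qa, C1qb, C1qc, C2, C4b, C3, Cfb, C3ar1 and C5ar1. All 9 were found by symbol among the 51138 genes of the count table, and all 9 were among the 30564 genes with enough counts to be tested. Their products are plasma components and 2 receptors, with C1qa, C1qb and C1qc encoding chains of the same component. The question was whether RNA of the set in implanted bone constructs differed with priming of the stromal cells or loss of regulatory T cells (Treg).

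RNA came from whole constructs taken 2 weeks after implantation under the skin of the back, in Foxp3-DTR/eGFP mice of both sexes that were 8 to 9 weeks old. These mice carry the diphtheria toxin receptor and a green fluorescent protein under Foxp3, so that toxin removes cells with an active Foxp3 gene, and every group of hosts carried this allele. There were 6 groups of 4 constructs, each from a different animal, and each animal carried 2 constructs of the same kind. The RNA thus mixed the cells that were seeded with the host cells that grew in.

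The BCP group held 40 mg of biphasic calcium phosphate granules without cells. In BCP+MSC, 800000 mesenchymal stromal cells (MSC) from wild-type C57BL/6J bone marrow, at passage 2, were cultured on the granules for 36 h before implantation. BCP+MSC+RvE1 constructs were primed during that time with 10 nM resolvin E1 (RvE1), a lipid mediator made from an omega-3 fatty acid. BCP+MSC+Treg constructs were cocultured with sorted and activated CD4+CD25+Foxp3+ cells, with as many Treg as MSC. (dep)BCP+MSC constructs were unprimed and lay in mice given diphtheria toxin at 50 µg per kg on several days. (dep)BCP+MSC+RvE1inj constructs lay in toxin-treated mice that also received 50 µl of 1 µM RvE1 at the implant every day. No vehicle injection is described for (dep)BCP+MSC, so effects of RvE1 and of the daily injection cannot be told apart. The toxin was given to both depleted groups and to no other group, so effects of toxin and of Treg loss cannot be told apart.

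Complement is a cascade of plasma proteins that tag and lyse targets and call in leukocytes. In the classical pathway C1q, assembled from the chains of C1qa, C1qb and C1qc, recognises bound antibody or dying cells and activates the proteases C1r and C1s, which cleave C4 and C2 to form a C3 convertase. Factor B, the product of Cfb, forms the convertase of the alternative pathway, and the peptides C3a and C5a released downstream act through the receptors C3ar1 and C5ar1. The liver makes most circulating components, while macrophages are a main source of C1q and fibroblasts and macrophages can make C3, C4 and C2 in tissue.

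In the annotation used for the counts (GRCm38), the C1q genes were neighbours on the minus strand of chromosome 4, with C1qb at chr4:136880129-136886187, C1qc at chr4:136889804-136893065 and C1qa at chr4:136895917-136898803. C4b at chr17:34728380-34743882, Cfb at chr17:34856374-34862518 and C2 at chr17:34862604-34898265 lay on the same strand of chromosome 17, where Cfb and C2 were less than a kilobase apart. C3 was at chr17:57203970-57228136, C3ar1 at chr6:122847138-122856161 and C5ar1 at chr7:16246743-16259540, all on the minus strand. The counting rested on exons, and 79.5% of the exon bases of Cfb and 42.8% of those of C2 were shared with Gm20547, a gene model on the same strand that spans both. Reads in shared bases were assigned to no gene, Gm20547 itself had 1 count in all libraries together, and the levels of Cfb and C2 rest on 579 and 2055 unshared exon bases. C4b has a near-identical copy, C4a, with which it can lose reads that align to both, so its level is a lower estimate.

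RefSeq promoter windows (GRCm38.p6) were at hand for 5 of the 9 genes, and the 250 bases before the start are shown for C1qb and C3, because these stand for the macrophage and the stromal side of the set and lie wholly outside their genes. Both are on the minus strand, at chr4:136886201-136886450 and chr17:57228137-57228386, and capitals mark matches to the searched letters.
C1qb: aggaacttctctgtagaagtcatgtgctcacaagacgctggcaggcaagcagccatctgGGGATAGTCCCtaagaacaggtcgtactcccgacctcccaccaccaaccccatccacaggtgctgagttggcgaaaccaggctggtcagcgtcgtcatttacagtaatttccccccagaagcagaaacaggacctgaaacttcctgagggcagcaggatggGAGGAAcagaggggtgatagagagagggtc
C3: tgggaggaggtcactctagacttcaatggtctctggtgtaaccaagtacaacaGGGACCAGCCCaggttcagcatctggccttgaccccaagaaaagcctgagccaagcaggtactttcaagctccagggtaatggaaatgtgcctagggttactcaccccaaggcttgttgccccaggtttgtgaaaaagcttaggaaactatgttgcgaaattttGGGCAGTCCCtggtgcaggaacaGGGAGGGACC

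Matches were sought on both strands. The letters GAGGAA, a core bound by PU.1 and other ETS factors of myeloid cells, occurred in the C1qb window 30 bases before the start and in the C1qc window, and not in those of C3, C3ar1 and C5ar1, while 23.3% of all 32851 promoter windows held them. The letters GGG and CC with 5 bases of any kind between them, an NF-kappaB core, matched 4 times in the C3 window, with 2 of these overlapping, 2 overlapping times in each of the C1qb and C1qc windows and once in that of C3ar1, and were present in 45.8% of all windows. The letters GAAA and GAAA with 2 bases of any kind between them, from interferon-stimulated elements, TTC and GAA with 3 between them, from STAT sites, and ACA and TGT with 3 between them, from glucocorticoid receptor sites, were in none of the 5 windows, and in 2.98%, 7.02% and 5.84% of all windows. Of the 250 bases, 151 in the C1qc window, 4 in that of C3ar1 and 202 in that of C5ar1 lay inside the gene as annotated for the counts. These windows are thus not all upstream sequence. A match describes letters and not a bound site.

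Library totals ran from 8482701 to 144417743 counts. Foxp3 RNA did not set the depleted groups apart. It ranged from 0.378 to 1.69 CPM (counts scaled to the size of the library) in (dep)BCP+MSC and from 0.298 to 1.07 CPM in (dep)BCP+MSC+RvE1inj, beside 0.629 to 1.19 CPM in BCP+MSC (edgeR, (dep)BCP+MSC against BCP+MSC, log2 fold change 0.04 and adjusted p = 0.989). Names with (dep) are therefore those of the labels, and Foxp3 RNA at 2 weeks gave no check of depletion in the construct, while the study checked depletion in lymphoid organs by flow cytometry. The 15 macrophage markers and the 12 fibroblast and stromal markers had counts in all 24 libraries, whereas none of the 6 hepatocyte markers had, their summed level being at most 6.40 CPM. Libraries also differed in the share of counts on genes with at most 1500 exon bases, from 6.79 to 16.3%. In the tests this share left the 9 genes out, and it is given below wherever it moved with any of them. Its relation to the other complement genes was not computed. By sex-linked genes the groups were unbalanced, since Y-linked RNA exceeded Xist in all 4 libraries of BCP+MSC+RvE1 and of (dep)BCP+MSC+RvE1inj, in 3 of 4 of BCP and of BCP+MSC+Treg, in 2 of (dep)BCP+MSC and in 1 of BCP+MSC. In 3 libraries Cfb lay under 1 CPM, namely BCP+MSC replicate 3, BCP+MSC+RvE1 replicate 2 and (dep)BCP+MSC+RvE1inj replicate 3, with 42, 2 and 1 counts. These 3 also had the highest ratios of C1qa to C1qb, 1.65, 2.84 and 1.77, and 14.8, 16.3 and 15.5% of their counts on short genes. In bulk RNA, fewer cells of a type and less RNA per cell cannot be told apart.

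The levels of the 9 genes spanned more than 2 orders of magnitude once divided by length. Averaged over the 24 libraries, C1qa and C1qb led with 1230.2 and 1228 CPM per kb of exon. C1qc followed at 434 and C3 at 341 CPM per kb. C4b at 112, C3ar1 at 89.4 and C5ar1 at 52.2 CPM per kb lay lower. C2 at 6.42 and Cfb at 2.32 CPM per kb were the lowest, with the shared exon bases noted above. A C1q chain had the highest level per kb of the 9 in 24 of 24 libraries, and Cfb the lowest in 21 of 24, C2 having the lowest in the others. Divided by their unshared exon bases alone, C2 averaged 12.1 and Cfb 11.3 CPM per kb, and Cfb was the lowest of the 9 in 14 libraries and C2 in 10, so that their order depends on the length used. Other early components were also well represented, with C1ra and C1s1, the proteases of C1, at 50.2 and 62.4 CPM per kb, whereas the terminal components Hc (the gene of C5), C6, C7, C8g and C9 each had at most 2.93 CPM per kb. Cfd, which encodes factor D and is abundant in fat, had the highest mean of the 47 tested complement genes, 1901 CPM per kb, and ranged from 1.70 to 8443 CPM between libraries.

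**Figure D1:**
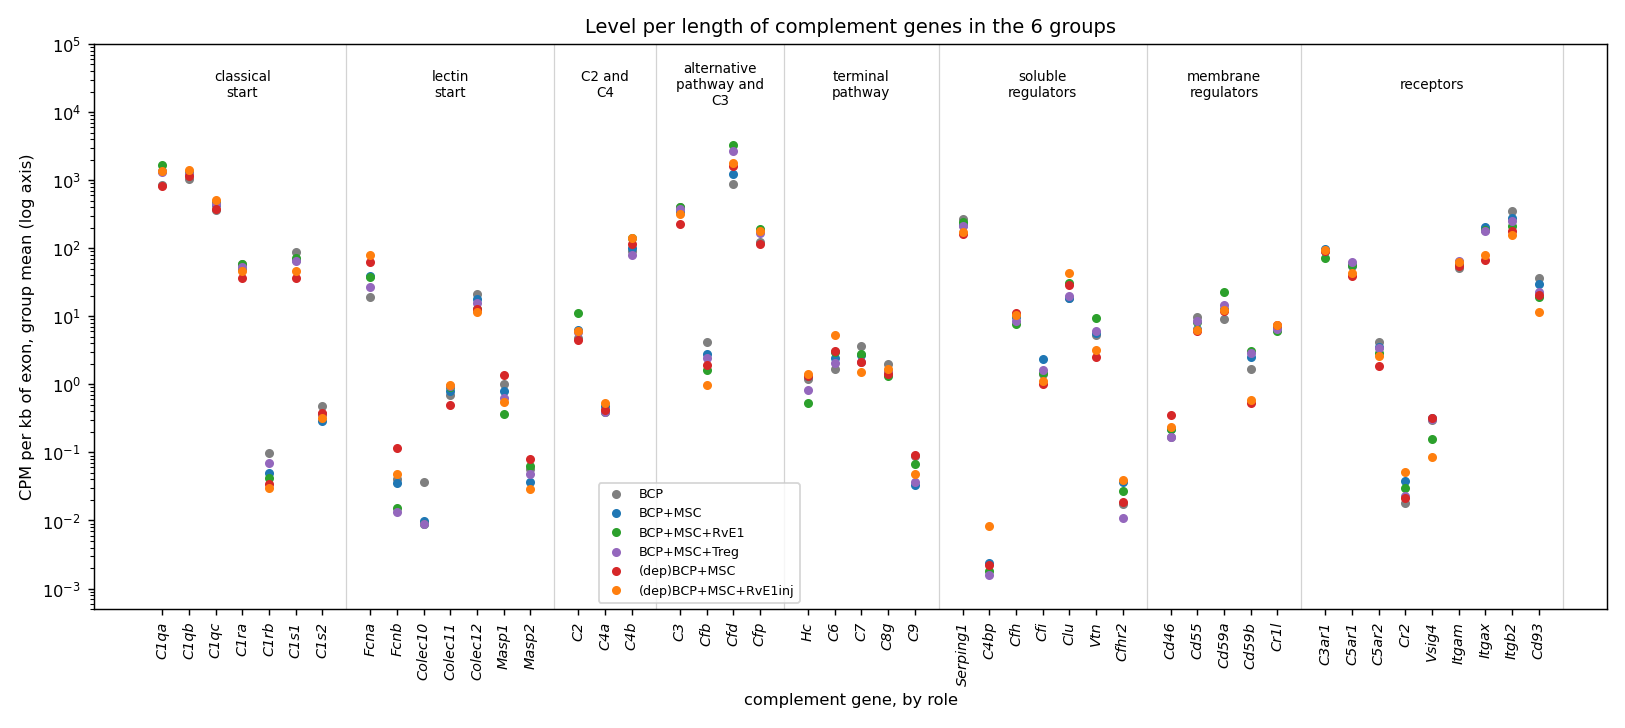
Group mean of CPM per kb of exon (log axis) for complement genes sorted by role, with 1 point per group of 4 constructs; a group at 0 is not drawn. C1qa and C1qb lie near 1230 CPM per kb, C2 and Cfb under 12, and points of different groups lie close together beside the differences between genes.

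Differences between groups were tested with edgeR's quasi-likelihood test over all genes in 9 comparisons. The samples of every group, BCP+MSC+RvE1 among them, are shared between comparisons, so these are not independent of each other. None of the 9 genes passed an adjusted p of 0.05 in any comparison. Among all genes tested, the adjusted test called 3.92% in (dep)BCP+MSC against BCP+MSC, 0.72% in (dep)BCP+MSC+RvE1inj against BCP+MSC and 0% in each of the other 7 comparisons. At an unadjusted p under 0.05, which 5.06% of all genes had in BCP+MSC against BCP, 15.6% in BCP+MSC+RvE1 against BCP, 7.6% in BCP+MSC+Treg against BCP, 3.26% in BCP+MSC+RvE1 against BCP+MSC, 2.72% in BCP+MSC+Treg against BCP+MSC, 2.37% in BCP+MSC+Treg against BCP+MSC+RvE1, 20.3% and 13.7% in the depleted groups without and with RvE1 against BCP+MSC and 7.42% between those, 6 of the 81 pairs of gene and comparison passed, all of them in comparisons with the BCP+MSC+RvE1 group. There C1qa, C2 and C4b were higher than in BCP, where 8.86% of all genes were, C2 was higher than in BCP+MSC, where 1.33% were, and C2 and C4b were lower in BCP+MSC+Treg, where 1.14% were. With DESeq2 as the test, C2 in BCP+MSC+RvE1 against BCP passed the adjusted threshold, and no other of the 81 pairs did.

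**Figure D2:**
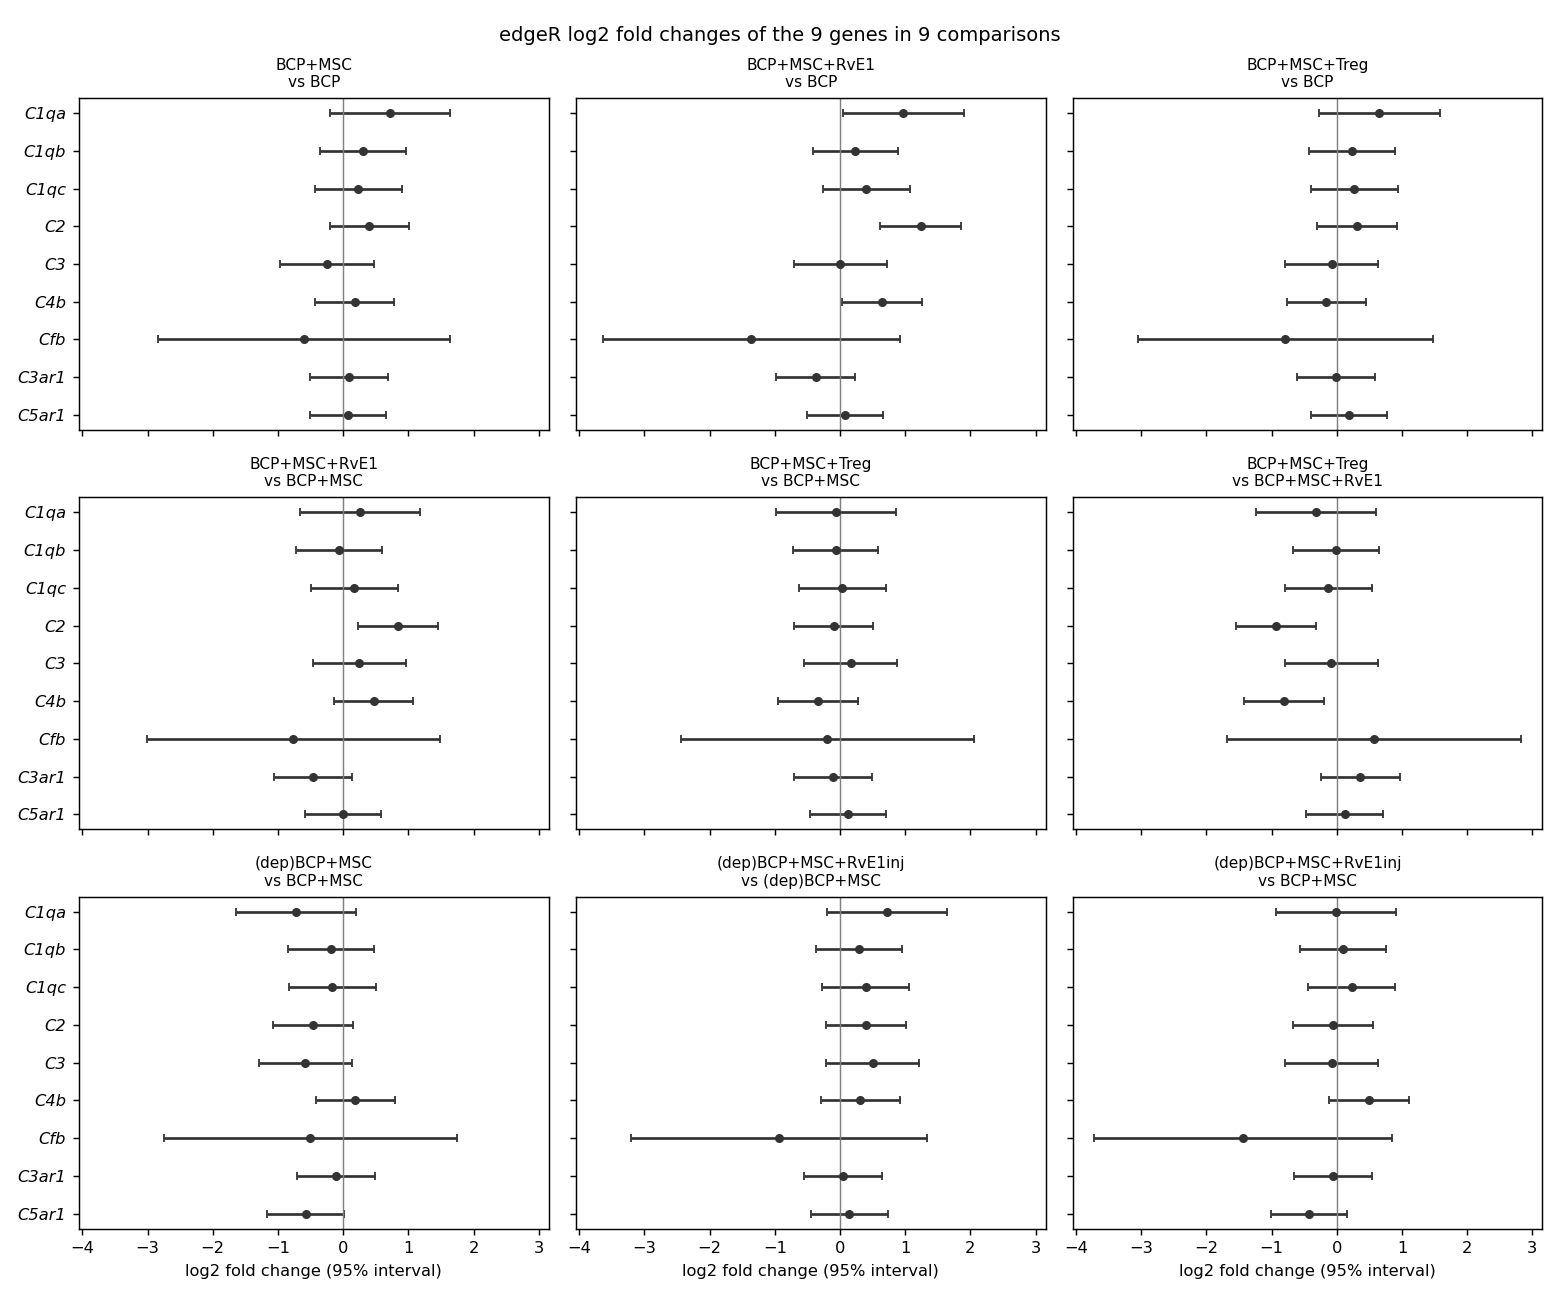
Log2 fold change with its 95% interval (edgeR) for the 9 genes in the 9 comparisons, with the name of the comparison above each panel. Of the 81 intervals, 6 leave out 0, among them C2 in BCP+MSC+RvE1 against BCP at 1.24, and the intervals of Cfb are the widest.

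C2, the protease that joins C4b in the classical C3 convertase, had the smallest p of the set. Its normalised level was 17.8, 21.7, 23.0 and 10.6 CPM in the 4 BCP constructs and 44.8, 48.5, 31.1 and 48.3 CPM in the 4 BCP+MSC+RvE1 constructs. The lowest RvE1-primed construct was above the highest BCP construct, so these groups did not overlap, and 4.79% of all genes were higher without overlap in that comparison. C2 was 2.36-fold higher in the fit, a log2 fold change of 1.24 ± 0.30 (SE), with adjusted p = 0.300 (edgeR). An exact permutation test gave p = 0.0286, the smallest that 4 against 4 samples allow and the value that groups without overlap always give. The log2 fold change stayed between 0.76 and 1.37 in the 20 alternatives tried, with an unadjusted p under 0.05 in each. It was 1.15 (adjusted p = 0.462, edgeR) without the 3 libraries low in Cfb.

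In BCP+MSC the 4 values of C2 were 13.4, 13.6, 31.2 and 38.6 CPM, and in BCP+MSC+Treg 30.9, 23.9, 18.6 and 17.1 CPM. BCP+MSC thus held a pair of low and a pair of high constructs, and its range reached into that of BCP+MSC+RvE1, whereas all BCP+MSC+Treg constructs lay below it. C2 was 0.83 ± 0.30 (log2, SE) higher in BCP+MSC+RvE1 than in BCP+MSC, with adjusted p = 0.924 (edgeR). In BCP+MSC+Treg it was 0.93 ± 0.30 lower than in BCP+MSC+RvE1 on the log2 scale, with adjusted p = 1.00 (edgeR), and 0.573% of all genes were lower without overlap in that comparison. In the toxin-treated mice C2 was 14.5, 20.9, 17.9 and 17.2 CPM in (dep)BCP+MSC and 19.9, 22.6, 28.1 and 22.7 CPM in (dep)BCP+MSC+RvE1inj. Both ranges lay below the lowest RvE1-primed construct. BCP+MSC+RvE1 was not tested against either toxin-treated group, and the share of all genes separated in this way was not computed. These groups differ from BCP+MSC+RvE1 in toxin as well as in priming. Between the toxin-treated groups the difference was 0.40 on the log2 scale, with an interval of -0.21 to 1.02 that included 0.

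C4b, whose product is the partner of C2 in the convertase, had its highest mean among the groups without toxin in BCP+MSC+RvE1, as C2 had. In BCP it was 500.2, 599, 524 and 423 CPM, in BCP+MSC+RvE1 645, 761, 817 and 975 CPM, and the BCP+MSC+Treg constructs had 499, 298, 429 and 603 CPM. The 4 RvE1-primed constructs lay above those of both other groups. Of all genes, 4.79% were higher without overlap in BCP+MSC+RvE1 than in BCP. In BCP+MSC+Treg, 0.573% were lower without overlap than in BCP+MSC+RvE1. C4b was 0.64 ± 0.30 (log2, SE) higher in BCP+MSC+RvE1 than in BCP, with adjusted p = 0.308 (edgeR). In BCP+MSC+Treg it was 0.81 ± 0.30 lower than in BCP+MSC+RvE1 on the log2 scale, with adjusted p = 1.00 (edgeR). The exact permutation p was 0.0286 for each, the value that groups of 4 without overlap always give. In BCP+MSC, C4b was 299.97, 322, 689 and 999.6 CPM, a 3.33-fold range that took in the values of BCP+MSC+RvE1. BCP+MSC+RvE1 therefore did not stand apart from BCP+MSC in C4b, with a difference of 0.47 on the log2 scale and an interval of -0.14 to 1.08.

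In toxin-treated mice C4b was 488, 757, 759.5 and 623 CPM in (dep)BCP+MSC and 855, 822, 720.2 and 864 CPM in (dep)BCP+MSC+RvE1inj, and the group with injected RvE1 had the highest mean of the 6, 815 ± 66.0 CPM (SD, n = 4). The intervals of (dep)BCP+MSC+RvE1inj against BCP+MSC (-0.11 to 1.11 on the log2 scale) and against (dep)BCP+MSC (-0.30 to 0.92) both included 0. C4a, which has 3541 counts in all libraries together against 871938 for C4b, had a level of 2.46 to 3.30 CPM in group means and passed no test.

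Several measures moved together with C2 and C4b between BCP and BCP+MSC+RvE1. The share of counts on short genes did not overlap, with 7.16 to 11.1% in BCP and 11.3 to 16.3% in BCP+MSC+RvE1. With the share as a covariate the log2 fold change of C2 was 0.76 and that of C4b 0.62 (adjusted p = 1.00 for each, edgeR), and only C2 of the 2 kept an unadjusted p under 0.05. The summed level of the 10 skeletal muscle markers was 3857 to 16631 CPM in BCP and 15285 to 30973 CPM in BCP+MSC+RvE1, that of the 6 adipocyte markers 104 to 1631 and 1597 to 6166 CPM, and no muscle or adipocyte marker was at 0 in any library. With the mean log2 CPM of the muscle markers as a covariate C2 differed by 1.01 (adjusted p = 0.704, edgeR). The 15 macrophage markers summed to 11464 to 14345 CPM in BCP and 8656 to 12391 CPM in BCP+MSC+RvE1. With their mean log2 CPM, not this sum, as a covariate C2 differed by 1.16 (adjusted p = 0.376, edgeR). With the sex-linked level as a covariate the log2 fold changes were 1.22 for C2, 0.58 for C4b and 0.93 for C1qa (adjusted p = 0.277, 0.321 and 0.306, edgeR), and of these C2 alone kept an unadjusted p under 0.05. Over the 20 alternatives the unadjusted p was under 0.05 in 9 for C4b and in 11 for C1qa. The part of the adipocyte level in these differences was not tested.

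**Figure D3:**
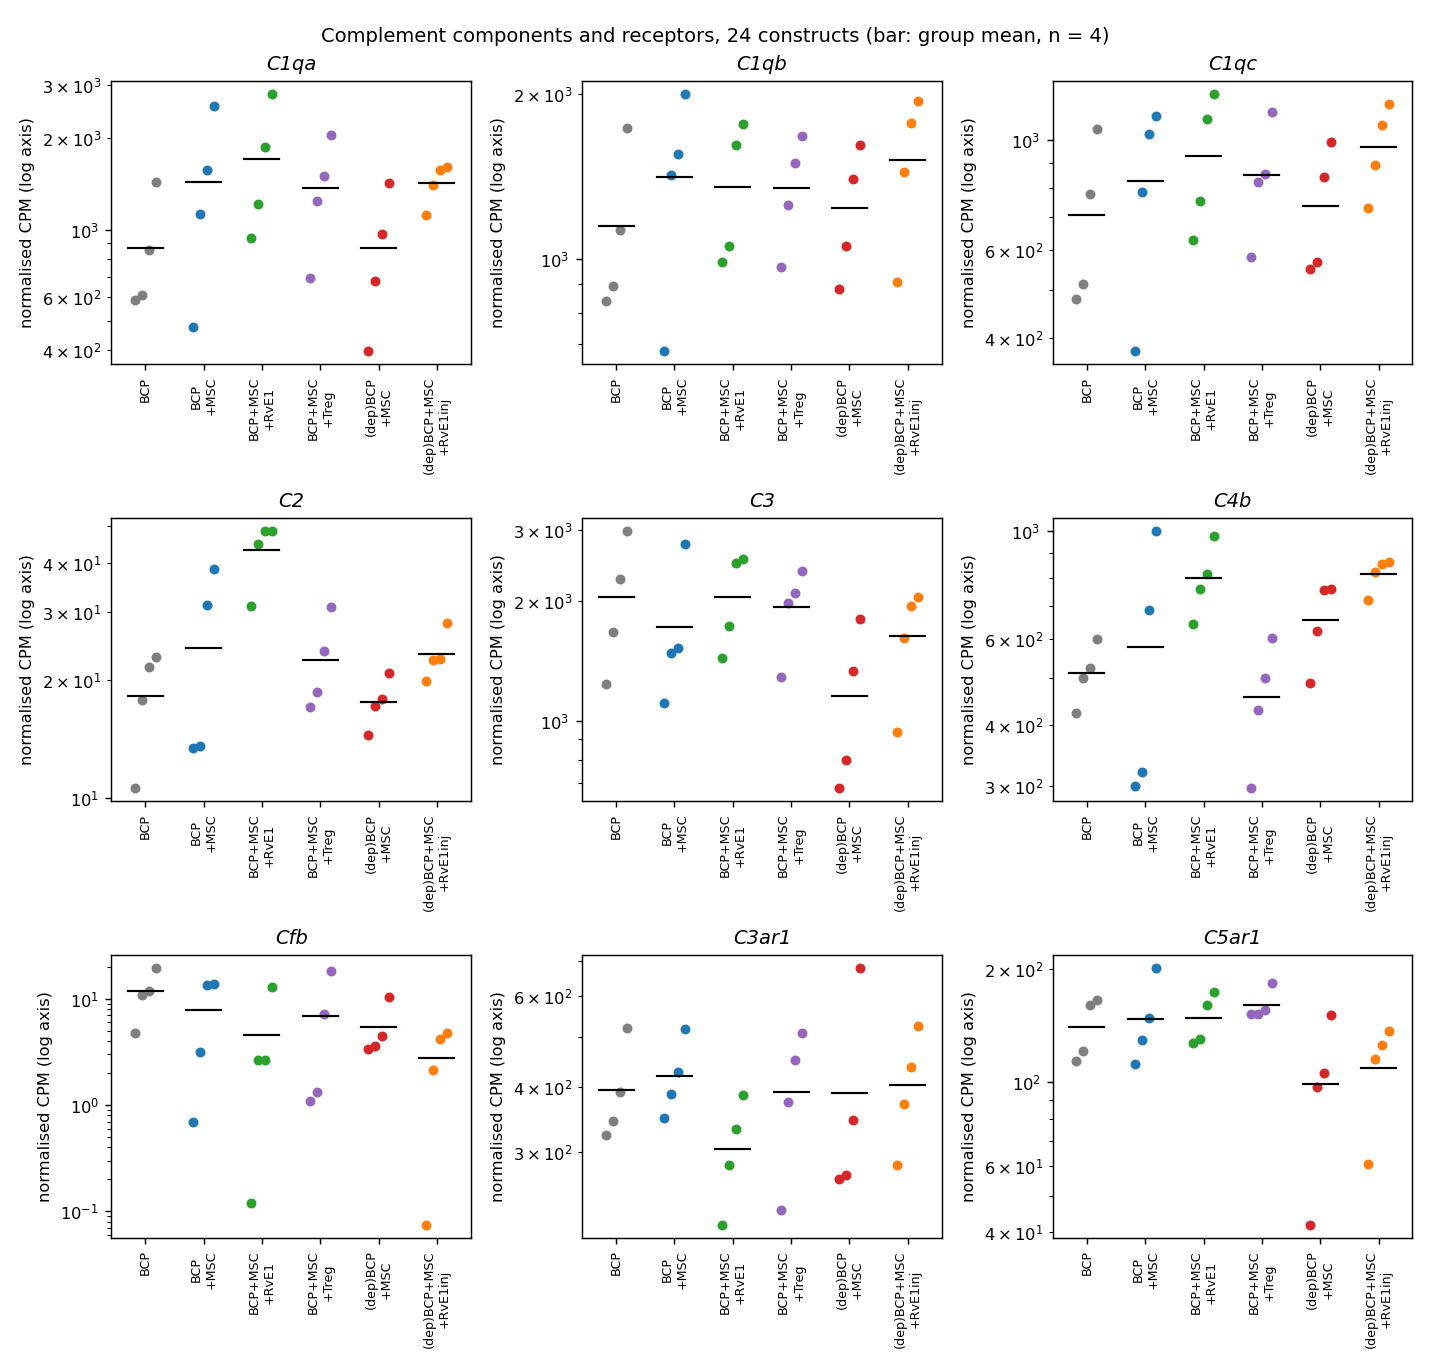
Normalised CPM (log axis) of the 9 genes in the 24 constructs by group, with a bar at the group mean (n = 4). The 4 BCP+MSC+RvE1 constructs lie above the 4 BCP constructs in C2 and C4b, the groups overlap in most other panels, and Cfb spreads over more than 2 orders of magnitude.

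The C1q chains were abundant in every construct. C1qb, the chain with the narrowest range, lay between 680 and 1999.6 CPM in the 24 libraries, a 2.94-fold range, with group means from 1149 ± 409 CPM (SD, n = 4) in BCP to 1514 ± 453 CPM in (dep)BCP+MSC+RvE1inj. C1qc ranged from 375 to 1241 CPM and its group means from 706 to 971 CPM. For both chains the groups overlapped in all 9 comparisons, the largest log2 fold change was 0.40, for C1qc in BCP+MSC+RvE1 against BCP, and its interval was -0.27 to 1.07. The levels of C1qb and C1qc thus gave no difference between groups beyond the spread between constructs.

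C1qa, the third chain, varied more. In BCP it was 585, 857, 1439.7 and 609 CPM, in BCP+MSC 1568, 478, 2562 and 1123 CPM and in BCP+MSC+RvE1 937, 2799, 1218 and 1875 CPM. The BCP+MSC+Treg constructs had 1497, 2054, 1246 and 693 CPM, those of (dep)BCP+MSC 397, 675, 966 and 1428 CPM and those of (dep)BCP+MSC+RvE1inj 1574, 1405, 1605 and 1116 CPM. The groups overlapped throughout, and the spread within BCP+MSC alone was more than 5-fold. C1qa was 0.97 ± 0.45 (log2, SE) higher in BCP+MSC+RvE1 than in BCP, with adjusted p = 0.310 (edgeR). With the short gene share as a covariate this difference was -0.046 (adjusted p = 1.00, edgeR), the opposite sign, and without the 3 libraries low in Cfb it was 0.60 (adjusted p = 0.548).

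The ratio of the C1q chains differed between libraries of the same group. C1qa exceeded C1qb in CPM in 6 of 24 libraries, and the ratio ran from 0.450 in a (dep)BCP+MSC construct to 2.84 in BCP+MSC+RvE1 replicate 2. Across the 24 libraries, the log2 ratio of C1qa to C1qb rose with the log2 share of counts on short genes (Pearson r = 0.76, permutation p = 5e-05, and Spearman rho = 0.89, permutation p = 1e-05, the smallest that 100000 permutations can give). The relation held within groups (r = 0.70, permutation p = 9e-05) and without the 2 libraries farthest from the median share (r = 0.79). C1qa itself had r = 0.87 and rho = 0.87 (permutation p = 1e-05 for each) and r = 0.85 within groups (permutation p = 2e-05). C1qc had r = 0.74 (permutation p = 9e-05), C2 had r = 0.70 (permutation p = 0.000180), and C1qb had r = 0.49 (permutation p = 0.0158), with 0.62, 0.60 and 0.29 without the 2 farthest libraries. Their rho was 0.69, 0.67 and 0.40 (permutation p = 0.000390, 0.000470 and 0.0534), and r within groups 0.70, 0.63 and 0.44. These were 10 relations, and after Benjamini-Hochberg adjustment the permutation p of Pearson's r was 5e-05 for C1qa, 0.000225 for C1qc, 0.000360 for C2 and 0.0264 for C1qb. C1qa, C1qb and C1qc have 1040, 1088 and 1931 exon bases, so C1qa and C1qb are short genes themselves.

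**Figure D4:**
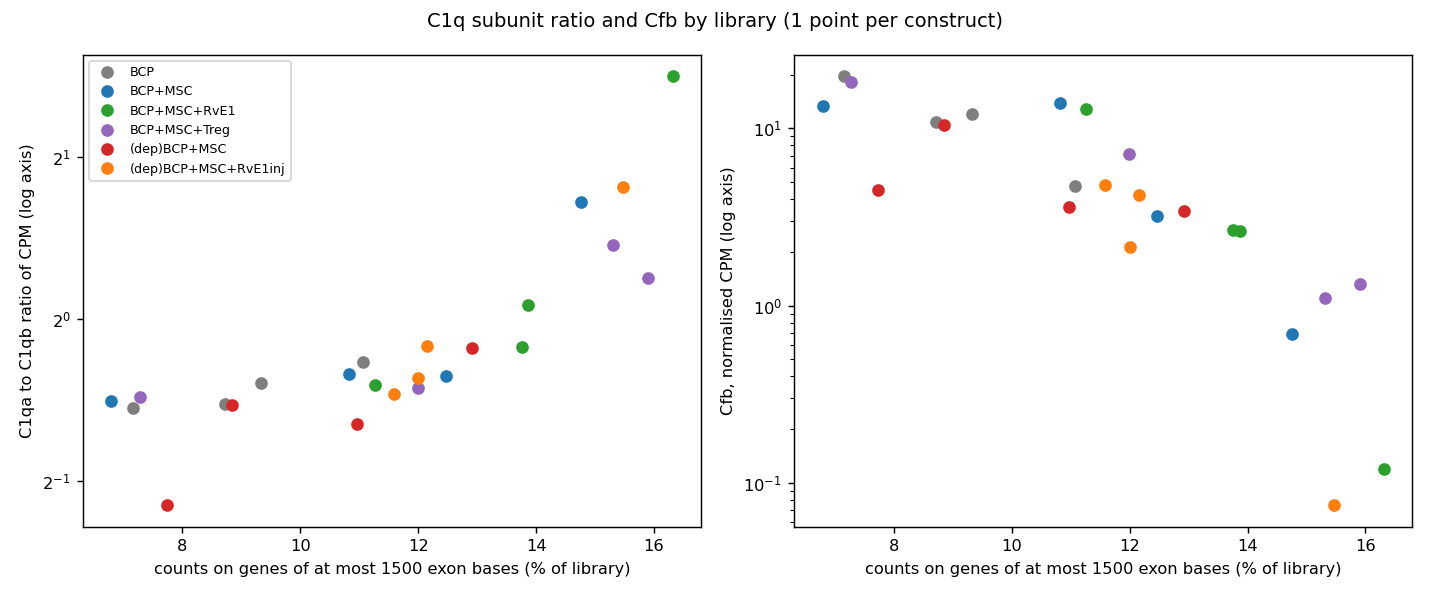
Ratio of C1qa to C1qb (left, log axis) and normalised CPM of Cfb (right, log axis) against the percentage of a library's counts on genes with at most 1500 exon bases, with 1 point per construct coloured by group. The ratio rises and Cfb falls from left to right, with the 3 libraries under 1 CPM of Cfb between 14.8 and 16.3%.

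C3, on which all pathways converge, had the highest mean CPM of the set over the 24 libraries and the highest value in 15 of them, while in (dep)BCP+MSC the mean of C1qb was higher. In BCP it was 1669, 2993, 2269 and 1237 CPM, in BCP+MSC 1526, 1108, 1483 and 2773 CPM and in BCP+MSC+RvE1 1729, 1434, 2540.2 and 2481 CPM, with log2 fold changes of -0.25 and 0.00 against BCP and intervals of -0.96 to 0.47 and -0.71 to 0.72. The BCP+MSC+Treg constructs had 2091, 1284, 1972 and 2376 CPM, those of (dep)BCP+MSC 678, 799.7, 1798 and 1336 CPM and those of (dep)BCP+MSC+RvE1inj 2047, 1938, 937 and 1611 CPM. The lowest mean was that of (dep)BCP+MSC, 1153 ± 516 CPM (SD, n = 4), where 2 constructs were under 800 CPM and the other 2 within the range of BCP+MSC. (dep)BCP+MSC was 0.58 below BCP+MSC on the log2 scale, with an interval from -1.30 to 0.14 (adjusted p = 0.361, edgeR), and (dep)BCP+MSC+RvE1inj was 0.50 above (dep)BCP+MSC, with an interval from -0.21 to 1.22 (adjusted p = 0.708). C3 did not move with the short gene share (Pearson r = 0.08, permutation p = 0.698, and Spearman rho = -0.03, permutation p = 0.876), nor did C4b (r = 0.24, permutation p = 0.267, and rho = 0.19, permutation p = 0.358).

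Per kb of unshared exon bases, Cfb, the gene of factor B, averaged 11.3 CPM beside 12.1 for C2. In CPM it had the lowest mean of the set and was the most variable. In BCP it was 10.8, 12.0, 4.75 and 19.7 CPM, in BCP+MSC 3.19, 13.4, 0.695 and 13.8 CPM and in BCP+MSC+RvE1 2.67, 0.120, 12.8 and 2.64 CPM. The BCP+MSC+Treg constructs had 1.33, 1.10, 7.16 and 18.2 CPM, those of (dep)BCP+MSC 4.49, 3.59, 10.4 and 3.40 CPM and those of (dep)BCP+MSC+RvE1inj 4.19, 4.80, 0.0746 and 2.13 CPM. Every group but BCP and (dep)BCP+MSC had a construct at 2.7 CPM or less beside others severalfold higher. The mean was highest in BCP, 11.8 ± 6.14 CPM (SD, n = 4), and lowest in (dep)BCP+MSC+RvE1inj, 2.80 ± 2.15 CPM, but these groups were not tested against each other. Of the tested differences from BCP, that of BCP+MSC+RvE1 had the widest interval, from -3.64 to 0.92 on the log2 scale. Cfb fell with the short gene share across the 24 libraries (Pearson r = -0.79 and Spearman rho = -0.89, permutation p = 1e-05 for each), also within groups (r = -0.75, permutation p = 2e-05) and without the 2 farthest libraries (r = -0.78). With this share as a covariate in the edgeR fit, Cfb passed the adjusted threshold in no comparison, as without it.

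The anaphylatoxin receptors passed no test. C3ar1, the receptor of C3a on myeloid cells, lay between 217 and 681 CPM in the 24 libraries, with group means from 305 ± 71.9 CPM (SD, n = 4) in BCP+MSC+RvE1 to 421 ± 72.2 CPM in BCP+MSC. Its largest difference was -0.47 on the log2 scale, in BCP+MSC+RvE1 against BCP+MSC, with an interval from -1.07 to 0.14 (adjusted p = 0.924, edgeR). C3ar1 thus had its lowest mean in the group where C2 had its highest. C3ar1 was above C5ar1 in CPM in 24 of 24 libraries. Across the 24 libraries C3ar1 fell with the short gene share (Pearson r = -0.46, permutation p = 0.0240, adjusted over the 10 relations 0.0343, and Spearman rho = -0.38, permutation p = 0.0712), with r = -0.33 without the 2 farthest libraries and r = -0.46 within groups (permutation p = 0.0506), so that the relation was weaker by rank and rested in part on those libraries. C5ar1 had r = 0.18 (permutation p = 0.414) and rho = 0.20 (permutation p = 0.336).

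C5ar1, the main receptor of C5a on neutrophils and macrophages, was 148, 129, 202 and 112 CPM in BCP+MSC, 41.9, 106, 151 and 97.1 CPM in (dep)BCP+MSC and 137, 126, 60.6 and 115 CPM in (dep)BCP+MSC+RvE1inj. The 2 toxin-treated groups had the lowest means, 98.8 ± 44.6 and 109 ± 33.7 CPM (SD, n = 4), while those of the other 4 groups were 140 to 160 CPM. (dep)BCP+MSC was 0.58 below BCP+MSC on the log2 scale (interval -1.16 to 0.01, adjusted p = 0.254, edgeR), a comparison in which 20.3% of all genes had an unadjusted p under 0.05. In (dep)BCP+MSC+RvE1inj it was 0.43 below BCP+MSC (interval -1.02 to 0.15). The macrophage markers summed to 9984 to 11622 CPM in BCP+MSC, 6716 to 11402 CPM in (dep)BCP+MSC and 6130 to 12068 CPM in (dep)BCP+MSC+RvE1inj, and the 10 neutrophil markers to 304 to 463 CPM, 105 to 589 CPM and 201 to 451 CPM. In (dep)BCP+MSC 3 of 4 constructs lay below the BCP+MSC range of the neutrophil sum. With the mean log2 CPM of the macrophage markers as a covariate in the edgeR fit, C5ar1 passed the adjusted threshold in no comparison, as without it. The part of the neutrophil list in the level of C5ar1 was not tested.

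Over the 9 genes together, the signs differed between comparisons. In (dep)BCP+MSC against BCP+MSC, 8 of 9 genes had a log2 fold change under 0, with a median of -0.46, beside a median of -0.04 over all genes tested, of which 47.2% were above 0. In (dep)BCP+MSC+RvE1inj against (dep)BCP+MSC, 8 of 9 were above 0, with a median of 0.31 beside 0.00 and 50.1% above 0. These comparisons share the (dep)BCP+MSC samples, and the members of the set are not independent of each other. In BCP+MSC+RvE1 against BCP the median was 0.24, in BCP+MSC against BCP 0.17 and in BCP+MSC+Treg against BCP 0.19, beside medians of 0.03, 0.06 and 0.03 over all genes.

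The rest of the pathway was read from a list of 53 complement genes, of which 47 were tested, 38 of them outside the 9. The genes of the list that were not tested had too few counts. In 8 of the 9 comparisons none of the 38 genes passed the adjusted test. In (dep)BCP+MSC against BCP+MSC, 2 passed, both lower, while 2.17% of all genes were called lower, and 7 were lower and none higher at an unadjusted p under 0.05, beside 10.7% and 9.66% of all genes.

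Itgax encodes CD11c, the chain that forms complement receptor 4 with Itgb2 and marks dendritic cells and some macrophages. It was 1368, 746, 887 and 942 CPM in BCP+MSC and 149.5, 148, 662 and 319.98 CPM in (dep)BCP+MSC. The groups did not overlap, while 4.93% of all genes were lower without overlap, and 1 depleted construct came close to the lowest control. Itgax fell by 1.62 ± 0.41 on the log2 scale (SE; adjusted p = 0.0253, edgeR), a 3.08-fold lower level, and lost the adjusted threshold without BCP+MSC replicate 1 or without (dep)BCP+MSC replicate 1 or 2 (adjusted p = 0.0881, 0.106 and 0.105). In (dep)BCP+MSC+RvE1inj it was 553, 534, 259 and 160.2 CPM, 1.39 below BCP+MSC on the log2 scale (adjusted p = 0.116). Itgam, the chain of complement receptor 3, and Itgb2 passed no test.

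Beside Itgax the dendritic cell markers were lower as well. The 6 markers summed to 41.2 to 75.4 CPM in BCP+MSC and 12.3 to 25.3 CPM in (dep)BCP+MSC, 2 of 6 passed the adjusted test, both lower, and none was at 0 in any library. Of all genes tested, 2.17% were called lower in (dep)BCP+MSC against BCP+MSC. The 12 fibroblast and stromal markers summed to 21932 to 48886 CPM and 7937 to 19207 CPM, with 7 of 12 called lower. Their part in the fall of Itgax was not tested.

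Cd59b, a membrane inhibitor of the terminal complex with a close copy in Cd59a, was 4.67, 1.60, 3.00 and 3.79 CPM in BCP+MSC and 0.0997, 0.578, 0.894 and 1.197 CPM in (dep)BCP+MSC, where the lowest library had 1 count. The groups did not overlap, as was so for the 4.93% of all genes that were lower without overlap. Cd59b fell by 2.15 ± 0.52 on the log2 scale (SE; adjusted p = 0.0196, edgeR), and lost the threshold without BCP+MSC replicate 1 or (dep)BCP+MSC replicate 1 or 2 (adjusted p = 0.0666, 0.0619 and 0.0794). It was 1.12, 0.861, 0.672 and 0.415 CPM in (dep)BCP+MSC+RvE1inj, 2.05 below BCP+MSC on the log2 scale (adjusted p = 0.0664). Cd59a, the more abundant copy, was 11.9 to 45.6 CPM in (dep)BCP+MSC and 14.6 to 29.0 CPM in BCP+MSC, which overlapped.

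The other 5 genes with an unadjusted p under 0.05 in that comparison did not pass the adjusted test. C5ar2, the second C5a receptor, was 3.79 to 10.7 CPM in (dep)BCP+MSC and 11.4 to 14.1 CPM in BCP+MSC, a log2 fold change of -0.94 (adjusted p = 0.0519, edgeR). C1s1, the protease of C1, had -0.84 (adjusted p = 0.0806), Vtn, whose product vitronectin binds terminal complexes, -1.17 (adjusted p = 0.0976) and Cfi, which cleaves C3b and C4b, -1.25 (adjusted p = 0.181). Colec10, a collectin of the lectin pathway, had 10 counts in the 4 BCP+MSC libraries together and none in either toxin-treated group.

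**Figure D5:**
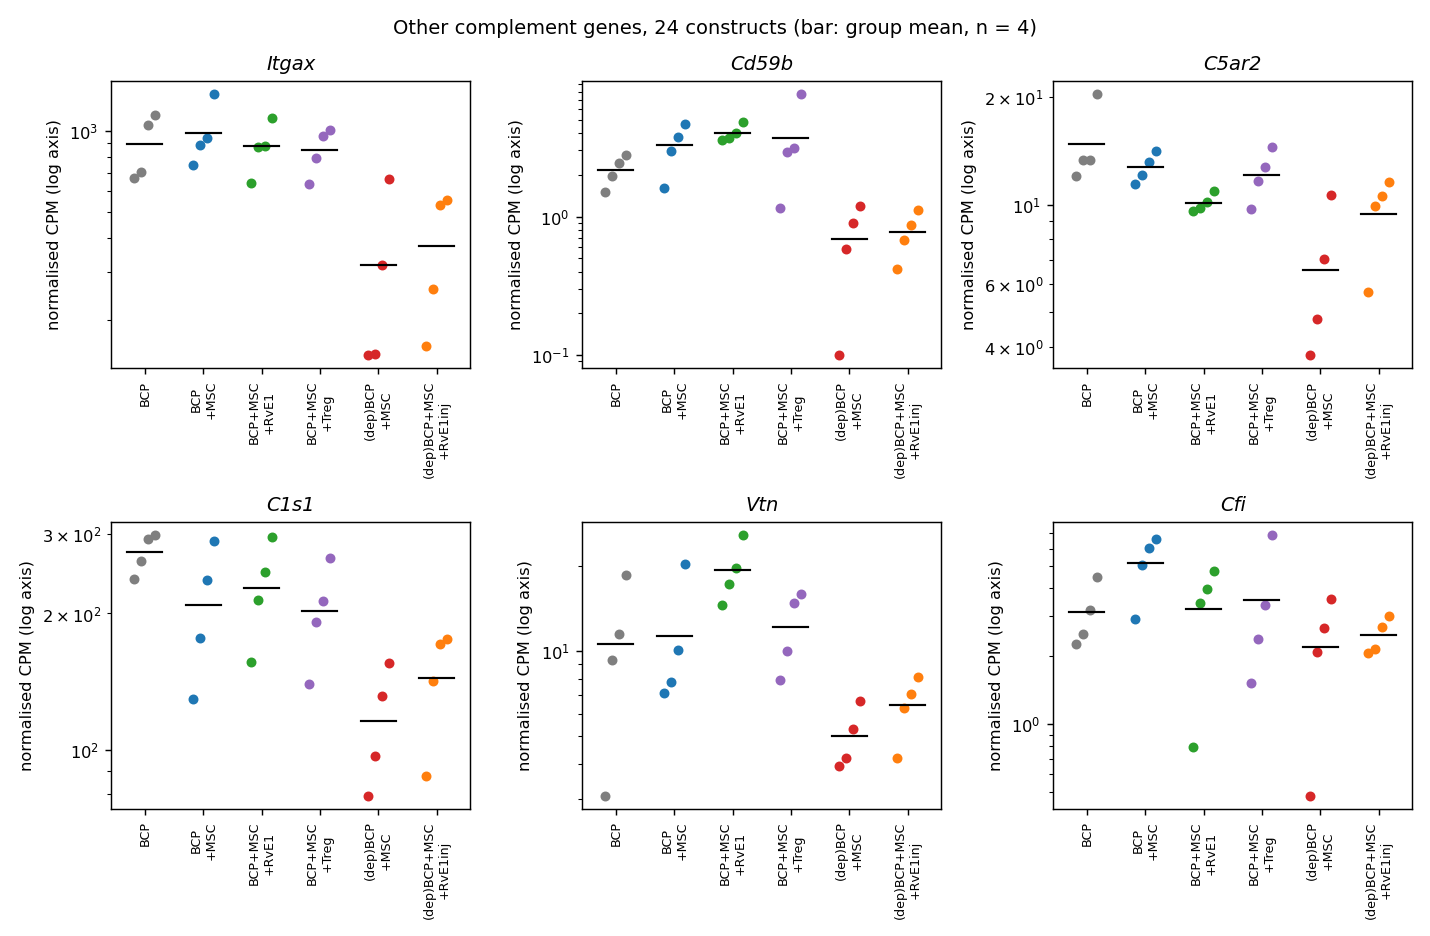
Normalised CPM (log axis) of 6 complement genes outside the set of 9 in the 24 constructs by group, with a bar at the group mean (n = 4). The (dep)BCP+MSC constructs lie below the BCP+MSC constructs in Itgax, Cd59b, C5ar2 and Vtn, and overlap them in C1s1 and Cfi.

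The soluble C1 inhibitor Serping1 was among the most abundant regulators, with group means from 374 CPM in (dep)BCP+MSC to 621 CPM in BCP, and passed no test. Of the 7 tested lectin pathway genes, Fcna (ficolin A) was 84.5 to 146 CPM in (dep)BCP+MSC+RvE1inj and 9.72 to 123 CPM in BCP+MSC, a log2 fold change of 1.03 (adjusted p = 0.350, edgeR). Clu, the gene of the terminal pathway inhibitor clusterin, differed by 1.21 in the same comparison (adjusted p = 0.223). In BCP+MSC+RvE1 against BCP, 4 of the 38 genes had an unadjusted p under 0.05, beside 15.6% of all genes. Cd59a differed by 1.33 (adjusted p = 0.300), Vtn by 0.86 (adjusted p = 0.307), the scavenger collectin Colec12 by -0.76 (adjusted p = 0.302) and Cd93 by -0.90 (adjusted p = 0.321).

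Set against markers of the cells that can make them, the members differed in how they varied. The mean log2 level of the 3 C1q chains lay above that of the macrophage list by 1.56 ± 0.47 in BCP and 2.32 ± 0.35 in BCP+MSC+RvE1 (SD, n = 4), and by 1.80 to 2.18 in the other 4 groups. C3 lay above the fibroblast and stromal list by 0.88 ± 0.54 in BCP, 0.87 ± 0.70 in BCP+MSC, 1.35 ± 0.37 in BCP+MSC+Treg, 1.37 ± 0.23 in BCP+MSC+RvE1, and by 1.55 ± 0.30 and 1.81 ± 0.14 in the groups with toxin, so that groups with and without toxin overlapped. C4b was 1.05 ± 0.23 below that list in BCP, 0.80 ± 0.95 below in BCP+MSC, 0.73 ± 0.41 below in BCP+MSC+Treg, 0.04 ± 0.44 above it in BCP+MSC+RvE1, 0.82 ± 0.45 above it in (dep)BCP+MSC, and 0.86 ± 0.53 above it with injected RvE1. The highest BCP+MSC+RvE1 construct, at 0.478, lay just under the lowest of (dep)BCP+MSC, at 0.481, and above the lowest with injected RvE1, at 0.390. The list itself was lower with toxin, with a mean log2 CPM of 8.51 ± 0.41 in (dep)BCP+MSC against 9.79 ± 0.41 in BCP+MSC. C4b itself differed by 0.19 on the log2 scale between these groups, with an interval that included 0, and C3 was 1.68 ± 0.53 above C4b on the log2 scale in BCP+MSC, 1.33 ± 0.30 in BCP+MSC+RvE1 and 0.72 ± 0.54 in (dep)BCP+MSC. These ratios are a description without a test.

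The genes with the most similar pattern were sought among 11571 named genes with a mean of at least 5 CPM, by Pearson's r of log2 CPM over the 24 libraries, which share depth and the short gene share described above. For the mean of the C1q chains they were Fcer1g (r = 0.93), an adaptor of Fc receptors in myeloid cells, Arhgdib, Cfp (properdin), Capzb and Akr1c13 (r = 0.92 to 0.91). For C3 they were C1ra (r = 0.88), Susd1, Fgd2, LTO1 and Jmjd8 (r = 0.86 to 0.83), so that another complement gene came first. For C4b they were Dpep1 and C6 (r = 0.74 for each), Hp, an acute-phase gene, Serpina3c and Hsd11b1 (r = 0.73 to 0.70). For C3ar1 they were Nsf (r = 0.89), Col12a1, Emilin2, Gcnt1 and Fbln2, and for C5ar1 Ebi3 (r = 0.89), Atg16l2, Cklf, Nrros and Acvrl1, with r from 0.88 to 0.86 for the rest. These likenesses are a description over libraries and carry no p.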

How the data were processed

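RNA-seq counts of 24 constructs, 4 animals in each of 6 groups, were used. Per the labels and the study's methods, the authors made stranded mRNA libraries (TruSeq), sequenced them in pairs, aligned the reads to GRCm38 with HISAT2 2.0.5 and deposited gene-level counts from featureCounts 1.5.2 with GENCODE M13 exons. Their call named no strand, multi-mapping or overlap option, so reads on several places or on overlapping genes were not counted and sense and antisense reads were counted together.

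Here, the 30564 genes whose counts summed to 10 or more entered edgeR 4.0.16 (R 4.3.3, limma 3.58.1) with TMM scaling and 1 robust quasi-likelihood fit over the 6 groups, with Benjamini-Hochberg adjustment over all genes and a threshold of 0.05. Levels are CPM on TMM-scaled totals, log2 values add a prior count of 2, and intervals are 95% intervals. Exact permutation tests over the 70 arrangements of 4 against 4 were two-sided. The edgeR p-values measure a spread between animals that was estimated in 1 fit over the 6 groups. Those of the exact permutation tests rest on the compared groups alone. Library totals of 8482701 to 144417743 put 3 counts at 0.354 to 0.0208 CPM, and floors cover counting error only. No pair of libraries was near-identical, and no column of another series was found. The (dep)BCP+MSC columns numbered 4 and 5 could be tied to their group and not to a sample number.

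The 9 genes and all lists were chosen with earlier results of these data known. Named by rule were the 9 genes, pathway genes called in a comparison (at most 12 in each), regulators and receptors by level, and the 5 genes most like the C1q mean, C3, C4b, C3ar1 and C5ar1 each; pathway genes named for an unadjusted p under 0.05 were chosen after their values were seen. Data were simulated for BCP+MSC against BCP over 29876 genes, of which 200 were changed. Of these, 23 of the 2-fold and 98 of the 4-fold changes were called, with 3 unchanged genes. The simulated spread followed from mean counts alone, without differences in the short gene share, and only genes above a count limit were changed. These results do not carry over to genes of wider spread, such as Cfb, with a within-group SD of 1.94 on the log2 scale. Alternatives were DESeq2 1.42.0, another scaling, other count filters, 4 covariates, a replicate block, the compared groups alone and each replicate left out. The muscle and macrophage covariates were the mean log2 CPM of the marker lists. A covariate for the short gene share and the omission of 3 libraries were added after seeing the data. Promoter windows are from RefSeq GRCm38.p6.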

Additional observations from a re-analysis of the deposited data

Results flagged for a closer look

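Of 54 sets of 4 constructs (9 genes in 6 groups), 2 held a value far from the others of its group. Cfb was 10.4 CPM in 1 (dep)BCP+MSC construct and 3.40 to 4.49 CPM in the other 3. C5ar1 was 183 CPM in 1 BCP+MSC+Treg construct and 151 to 155 CPM in the other 3. Chance alone gives about 1 such set in 20, and neither value changed a call.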

How the results depend on the processing

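None of the 9 genes passed the adjusted threshold in 179 of 180 alternative fits, and in DESeq2 1 did in BCP+MSC+RvE1 against BCP (C2, log2 fold change 1.25, adjusted p = 0.0313). For C2 in this comparison the adjusted p ran from 0.0313 to 1.00 over the alternatives, and the log2 fold change was 1.05 to 1.37 with 1 replicate left out. For C1qa it was -0.046 with the short gene share as a covariate, so that the sign reversed, and 0.62 to 1.32 with 1 replicate left out; for C4b it was 0.53 to 0.74. Cd59b and Itgax in (dep)BCP+MSC against BCP+MSC passed in 16 of 20 alternatives each, with -2.51 to -1.88 and -2.23 to -1.39 with 1 replicate left out, and did not pass with the compared groups alone (adjusted p = 0.115 and 0.130). Over all genes, (dep)BCP+MSC against BCP+MSC had 1198 calls, 2859 in DESeq2, 2567 with the short gene share, 157 with the compared groups alone and 467 at the least with 1 replicate left out, and (dep)BCP+MSC+RvE1inj against BCP+MSC had 220 and 1112 in DESeq2, 663 with the macrophage level, 410 with the short gene share, 357 with the sex-linked level, 43 without the 3 libraries 40 with the groups alone and 45 at the least with 1 replicate left out. DESeq2 called 101 genes, against 0, in BCP+MSC+RvE1 against BCP. Samples of the same replicate number did not deviate together (50 pairs, r from -0.69 to 0.68, 19 over 0.1). With a replicate block, which left out the 2 unnumbered columns, C2 in BCP+MSC+RvE1 against BCP had 1.24 (adjusted p = 0.313), none of the 9 passed, and all-gene calls were 2443 in (dep)BCP+MSC against BCP+MSC and 344, against 0, in (dep)BCP+MSC+RvE1inj against (dep)BCP+MSC. The causes were not tested. With 4 constructs a group, intervals of the 9 genes spanned more than 1 log2 unit.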
